A study of Mus musculus with 4 samples.

Results

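The growth arrest and DNA damage inducible genes Gadd45a, Gadd45b and Gadd45g were read out in bulk RNA of cells sorted as mouse B cell precursors. So was the kinase gene Map3k4, whose product the Gadd45 proteins bind. The 4 genes were taken by name from 55573 gene identifiers, and each was found under 1 identifier. They were chosen by name, with the KO minus WT differences in FPKM of these same libraries already known. Those differences are therefore given as a description, and the calls that the fit over all genes gives for them are not read as a test. RNA was sequenced from 2 libraries labelled ADAR1 KO (KO 1, KO 2) and 2 labelled wild type (WT 1, WT 2). All came from Fr.C+C' B cells sorted from bone marrow of C57BL/6 mice aged 8 to 12 weeks. ADAR1 is the enzyme that turns adenosine into inosine in double-stranded RNA, and Fr.C+C' is a gate of the Hardy scheme for B cell precursors between the pro-B and the small pre-B stage. The labels give neither the knockout allele nor any Cre driver, and no label says whether libraries of the same group stem from different mice.

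Gadd45 proteins are small acidic nuclear proteins that cells make when they are stressed, when DNA is damaged or when growth stops. They bind the MAP3K4 kinase and relieve its autoinhibition, which switches on the kinase cascades that end in p38 and JNK. They also bind PCNA, p21 and the CDK1-cyclin B1 complex, and take part in excision repair and in active DNA demethylation. Gadd45a is a classic p53 target, Gadd45b is induced by NF-kappaB and TGF-beta signals, and Gadd45g is induced by cytokines. In cultured mouse marrow cells the family is also known to be induced during terminal myeloid differentiation.

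The 3 Gadd45 genes lie on different chromosomes and are compact. In GRCm38 Gadd45a (ENSMUSG00000036390) spans chromosome 6, 67035096 to 67037457, on the minus strand. Gadd45b (ENSMUSG00000015312) spans chromosome 10, 80930073 to 80932204, and Gadd45g (ENSMUSG00000021453) chromosome 13, 51846678 to 51848468, both on the plus strand. Map3k4 (ENSMUSG00000014426) is much longer, on the minus strand of chromosome 17, 12227621 to 12318796, in 30 exon blocks. The longest run of identical bases shared by any transcripts of 2 Gadd45 genes was 17 nt, between Gadd45a and Gadd45g, so the paralogues carry little sequence in common that could split reads between them. The antisense transcript E230016M11Rik shares 337 nt of exon with Gadd45a. It stood at 0.36 and 0.69 FPKM in KO 1 and KO 2, against 0.44 and 0.59 FPKM in WT 1 and WT 2. Whether strand was kept is not stated, so reads in that stretch cannot be assigned to either gene.

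Promoter windows of the 3 Gadd45 genes are printed below, chosen with the KO minus WT differences of the 4 genes already known. They are RefSeq windows of 300 bases on GRCm38.p6, from 250 bases before the transcript start to 50 after it, read 5′ to 3′ on the gene's strand. All 4 genes had 1 window each. Capitals mark 4 motifs, searched on both strands: the octamer ATTTGCAT bound by POU factors, the CCAAT box (CCAAT) bound by NF-Y, the TATA box (TATAAA) and the E-box CACGTG.
Gadd45a (chr6:67037358-67037657, minus strand): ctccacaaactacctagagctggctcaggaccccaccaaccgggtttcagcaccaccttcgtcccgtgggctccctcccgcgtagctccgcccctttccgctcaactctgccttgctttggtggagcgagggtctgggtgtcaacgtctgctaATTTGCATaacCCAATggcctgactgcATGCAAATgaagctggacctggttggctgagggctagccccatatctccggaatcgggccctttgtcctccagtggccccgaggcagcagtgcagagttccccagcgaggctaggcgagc
Gadd45b (chr10:80929841-80930140, plus strand): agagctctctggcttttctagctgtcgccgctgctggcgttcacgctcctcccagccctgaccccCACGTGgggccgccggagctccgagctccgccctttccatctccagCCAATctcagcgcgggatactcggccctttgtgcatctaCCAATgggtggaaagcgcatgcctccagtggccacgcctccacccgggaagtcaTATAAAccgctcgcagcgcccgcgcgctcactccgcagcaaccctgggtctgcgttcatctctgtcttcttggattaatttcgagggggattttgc
Gadd45g (chr13:51846425-51846724, plus strand): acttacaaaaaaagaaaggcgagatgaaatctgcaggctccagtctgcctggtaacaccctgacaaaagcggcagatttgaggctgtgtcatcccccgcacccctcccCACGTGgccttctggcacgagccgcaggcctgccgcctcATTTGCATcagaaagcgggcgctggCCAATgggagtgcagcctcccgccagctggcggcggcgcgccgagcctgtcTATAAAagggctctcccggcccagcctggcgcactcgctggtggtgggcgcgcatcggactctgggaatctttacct

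Gadd45a carried 2 octamers, starting 97 and 70 bases before the transcript start, one on each strand, with a CCAAT box between them. Gadd45g carried 1 octamer, starting 103 bases before its start, where it overlaps a match to the C/EBP-ATF element TGATGCAA on the other strand. Of 11483 windows of genes tested here, 1.32% held an octamer on either strand, and Gadd45b and Map3k4 held none. A CCAAT box was in all 3 Gadd45 windows and in 38.4% of windows of genes tested. A TATA box and the E-box were in the Gadd45b and Gadd45g windows, and in 7.1% and 10.2% of windows of genes tested. The Map3k4 window (chromosome 17, 12318611 to 12318910) held none of these 4 motifs and 2 GC boxes (GGGCGG), of which Gadd45a and Gadd45b held 1 each and 61.1% of windows of genes tested at least 1. It was the richest of the 4 windows in G and C, at 72.7% with 38 CpG pairs, against 61.0% and 14 for Gadd45a, 62.0% and 24 for Gadd45b, and 62.3% and 21 for Gadd45g. The windows of genes tested had a median of 60.3% and 20 CpG pairs. The cAMP response element (TGACGTCA), the AP-1 site (TGANTCA) and the FOXO site (GTAAACA) had no match in any of the 4 windows. A match is a run of letters and not evidence of binding. Whether these motifs have any part in the KO minus WT differences was not tested.

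**Figure D1:**
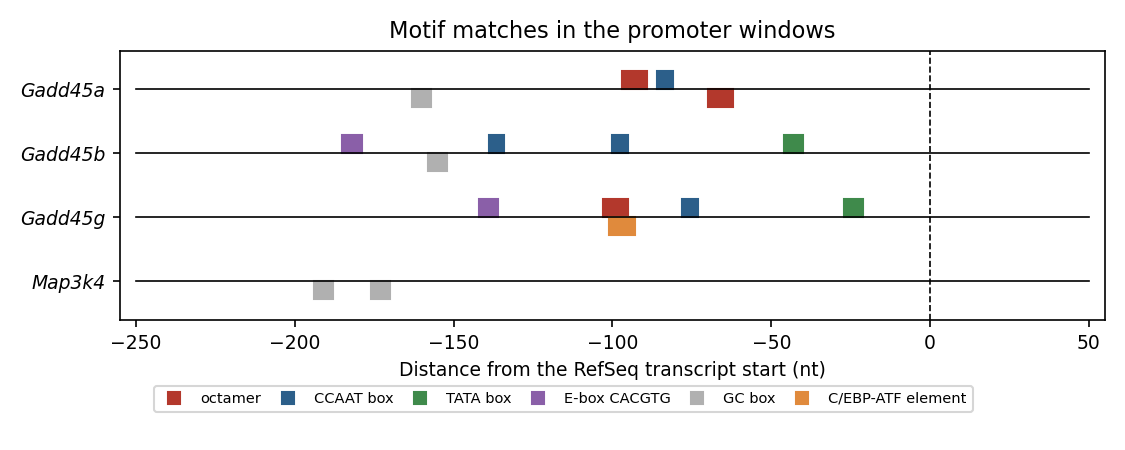
Motif matches in the 300-base windows of the 4 genes. The x axis is the distance in nt from the RefSeq transcript start; boxes above a line are on the gene's strand and boxes below it on the opposite strand. The octamers of Gadd45a and Gadd45g lie between 103 and 63 bases before the start, and Map3k4 shows GC boxes alone.

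Values are FPKM, fragments scaled to exon length and library size, so they can be compared between genes. Between 15117150 and 16410700 fragments were assigned to genes in a library, as recovered from the steps of the low values. Adar itself was at 15.19 and 16.79 FPKM in KO 1 and KO 2, against 15.04 and 14.62 FPKM in WT 1 and WT 2 (limma adjusted p = 0.721). An FPKM summed over all exons would not reveal a deletion of a few of them, so the KO label is not checked by it. Fits used log2(FPKM + 1) in limma over the 13281 genes that averaged 1 FPKM or more in KO or in WT, adjusted by the Benjamini-Hochberg method. Differences are KO minus WT, and this scale understates the change of low genes.

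KO 2 was the library furthest from WT in its summed B lineage, neutrophil and monocyte markers. The 18 B lineage markers summed to 3578 and 1924 FPKM in KO 1 and KO 2, against 4348 and 4783 FPKM in WT 1 and WT 2, with none at 0. The 18 neutrophil markers summed to 37710 and 77280 FPKM in KO 1 and KO 2, against 29150 and 27140 FPKM in WT 1 and WT 2. None of them was at 0 in any library, and 15 of 18 lay higher in both KO libraries than in both WT libraries, where 19.7% of all genes tested did. Of the B lineage markers 10 of 18 lay lower in both KO libraries, where 31.7% of all genes tested did. The 14 monocyte and macrophage markers summed to 3253 and 6098 FPKM in KO 1 and KO 2, against 2571 and 2454 FPKM in WT 1 and WT 2. Of these 14, 7 were positive and 7 negative in log2 difference, with a median of -0.01, where 38.3% of all genes tested were positive. Both KO libraries lay above both WT libraries for 4 of the 14, where 19.7% of all genes tested did. The neutrophil sum exceeded the B lineage sum in every library, WT included. Levels given here are therefore those of the whole bulk RNA, and not of B lineage cells alone. In such bulk RNA, fewer cells of a type and less RNA per cell cannot be told apart.

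Gadd45g showed the greatest difference of the family. It stood at 29.49 and 28.07 FPKM in KO 1 and KO 2, against 11.55 and 13.14 FPKM in WT 1 and WT 2. The KO libraries lay close together and far above both WT libraries, the lowest KO value being 2.14-fold the highest WT value. Its means were 28.8 ± 1.0 FPKM in KO and 12.3 ± 1.12 FPKM in WT (SD, n = 2 each), a 2.33-fold ratio. The log2 difference was 1.16 ± 0.14 (SE), and 100 of the 13281 genes tested had a larger one. These values rest on about 548 and 498 fragments in KO 1 and KO 2, against 214 and 253 in WT 1 and WT 2.

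Gadd45a, the most abundant of the 4 genes in every library, was also higher in both KO libraries. It stood at 42.91 and 48.92 FPKM in KO 1 and KO 2, against 25.18 and 27.11 FPKM in WT 1 and WT 2. The groups did not overlap, and the lowest KO value was 1.58-fold the highest WT value. Its means were 45.9 ± 4.25 FPKM in KO and 26.1 ± 1.36 FPKM in WT (SD, n = 2 each), a 1.76-fold ratio. The log2 difference was 0.79 ± 0.15 (SE), with 3.67% of genes tested above it.

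Gadd45b had the largest pooled SD of the 4 genes on the log2 scale, 0.29, although Map3k4 differed more between the KO libraries. It stood at 25.27 and 19.02 FPKM in KO 1 and KO 2, against 11.47 and 15.76 FPKM in WT 1 and WT 2. The groups did not overlap, but the gap between the lowest KO and the highest WT value, 1.21-fold, was smaller than the 1.33-fold between the KO libraries and the 1.37-fold between the WT libraries. Its means were 22.1 ± 4.42 FPKM in KO and 13.6 ± 3.03 FPKM in WT (SD, n = 2 each), a 1.63-fold ratio. The log2 difference was 0.67 ± 0.22 (SE), with 5.58% of genes tested above it.

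Map3k4, the gene of the kinase that the Gadd45 proteins engage, was not separated between the groups as the Gadd45 genes were. It stood at 10.79 and 7.69 FPKM in KO 1 and KO 2, against 8.83 and 8.41 FPKM in WT 1 and WT 2. The KO libraries lay on either side of both WT libraries. Its means were 9.24 ± 2.19 FPKM in KO and 8.62 ± 0.297 FPKM in WT (SD, n = 2 each). The log2 difference was 0.07 ± 0.19 (SE), with 30.8% of genes tested above it. It had the other sign, -0.15, without KO 1. With about 1184 to 1740 fragments in a library, Map3k4 was read with more fragments than any Gadd45 gene except Gadd45a in KO 2.

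**Figure D2:**
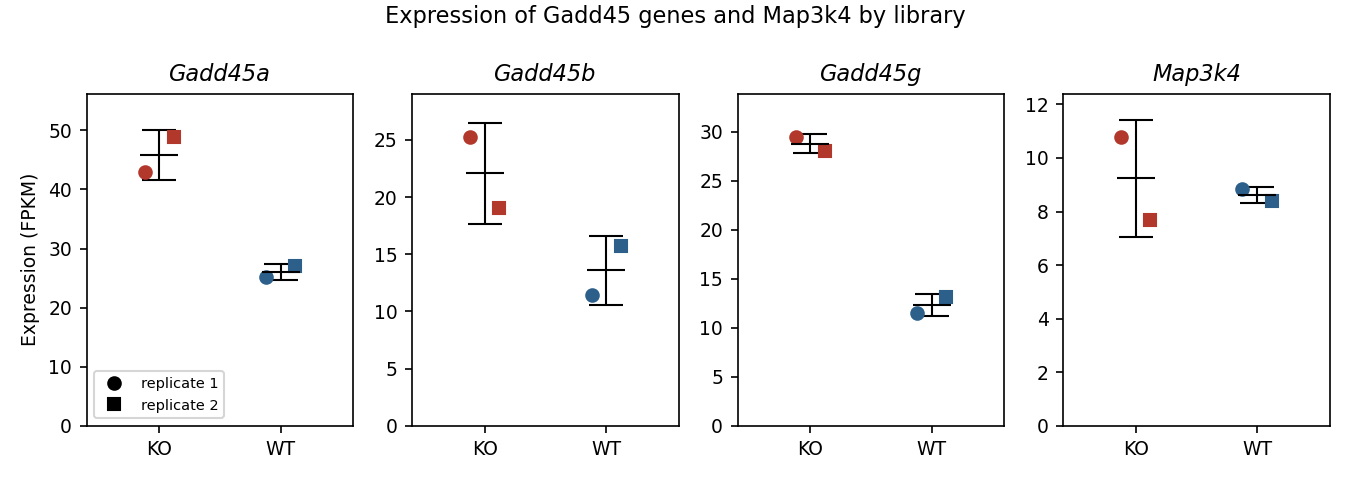
FPKM of each gene by library, KO on the left and WT on the right of each panel, with replicate 1 as a circle and replicate 2 as a square. Black lines are the mean and the SD of 2 libraries. Gadd45a, Gadd45b and Gadd45g show no overlap between groups, while the KO values of Map3k4, 10.79 and 7.69 FPKM, lie on either side of the WT values.

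Both KO libraries lay above both WT libraries for 3 of the 4 genes, where 19.7% of all genes tested did so. At an adjusted p under 0.05 in limma 0 of the 4 were called, where 0.203% of all genes tested were, and 3 had an unadjusted p under 0.05 and were higher, where 6.45% of all genes tested were. Voom on estimated fragments also called 0. Since the members were chosen with this contrast known, nothing is read from these counts.

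The summed level of the 3 Gadd45 genes was 97.67 and 96.01 FPKM in KO 1 and KO 2, against 48.20 and 56.01 FPKM in WT 1 and WT 2. The KO libraries were within 2 FPKM of each other on this sum, although their single genes differed. The means were 96.8 ± 1.17 FPKM in KO and 52.1 ± 5.52 FPKM in WT (SD, n = 2 each), a 1.86-fold ratio. The make-up of the sum also differed. Gadd45g formed 30.2% and 29.2% of it in KO 1 and KO 2, against 24.0% and 23.5% in WT 1 and WT 2, with no overlap. Gadd45a formed 43.9% and 51.0% in KO 1 and KO 2, against 52.2% and 48.4% in WT 1 and WT 2. Gadd45b formed 25.9% and 19.8% in KO 1 and KO 2, against 23.8% and 28.1% in WT 1 and WT 2. The shares of these last 2 genes overlapped between the groups. The order of levels was Gadd45a first in each library, with Gadd45g above Gadd45b in KO 1, KO 2 and narrowly in WT 1, and below it in WT 2. In WT the means of Gadd45b and Gadd45g differed by less than the SD of Gadd45b. Map3k4 was lowest in each library, and the Gadd45 sum was 9.05 and 12.5 times its level in KO 1 and KO 2, against 5.46 and 6.66 times in WT 1 and WT 2.

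**Figure D3:**
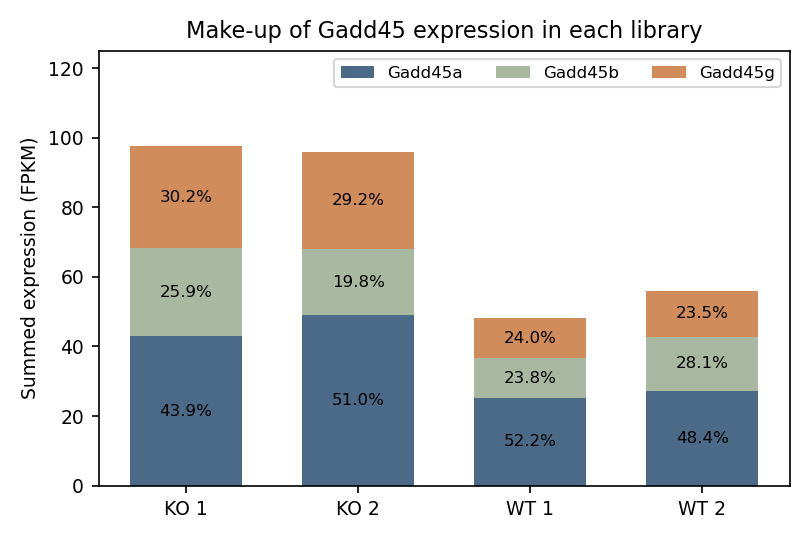
Stacked FPKM of Gadd45a, Gadd45b and Gadd45g in each library, with each gene's share of the sum printed in its bar. The sums are 97.67 and 96.01 FPKM in the KO libraries, against 48.20 and 56.01 FPKM in the WT libraries, and the Gadd45g share is 30.2% and 29.2% against 24.0% and 23.5%.

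The KO libraries differed more in the sums of the neutrophil, monocyte and B lineage lists than in any Gadd45 gene. Against the WT mean, Gadd45g was 2.39-fold in KO 1 and 2.27-fold in KO 2, and Gadd45a 1.64-fold and 1.87-fold. Gadd45b was 1.86-fold in KO 1 and 1.4-fold in KO 2. The neutrophil list was 1.34-fold in KO 1 and 2.75-fold in KO 2, the monocyte and macrophage list 1.29-fold and 2.43-fold, and the B lineage list 0.784-fold and 0.421-fold. Gadd45g and Gadd45b were at least as high in KO 1 as in KO 2, and Gadd45a was higher in KO 2. The sums of both myeloid lists were higher in KO 2, with the monocyte and macrophage markers split in the sign of their KO minus WT difference. The 6 plasmacytoid dendritic cell markers were 1.48-fold and 1.66-fold the WT mean, and the 10 T and NK cell markers 1.1-fold and 2.26-fold. The 8 basophil, mast cell and eosinophil markers were 1.03-fold and 1.02-fold. The 8 haematopoietic progenitor markers, of which 5 were tested, were 1.08-fold and 1.6-fold. The erythroid markers were 0.329-fold and 0.622-fold, and the 8 plasma cell markers 0.636-fold and 0.403-fold, with the plasma cell marker Tnfrsf17 listed at 0 in both KO libraries. The part of these other cells in the Gadd45 levels was not tested.

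**Figure D4:**
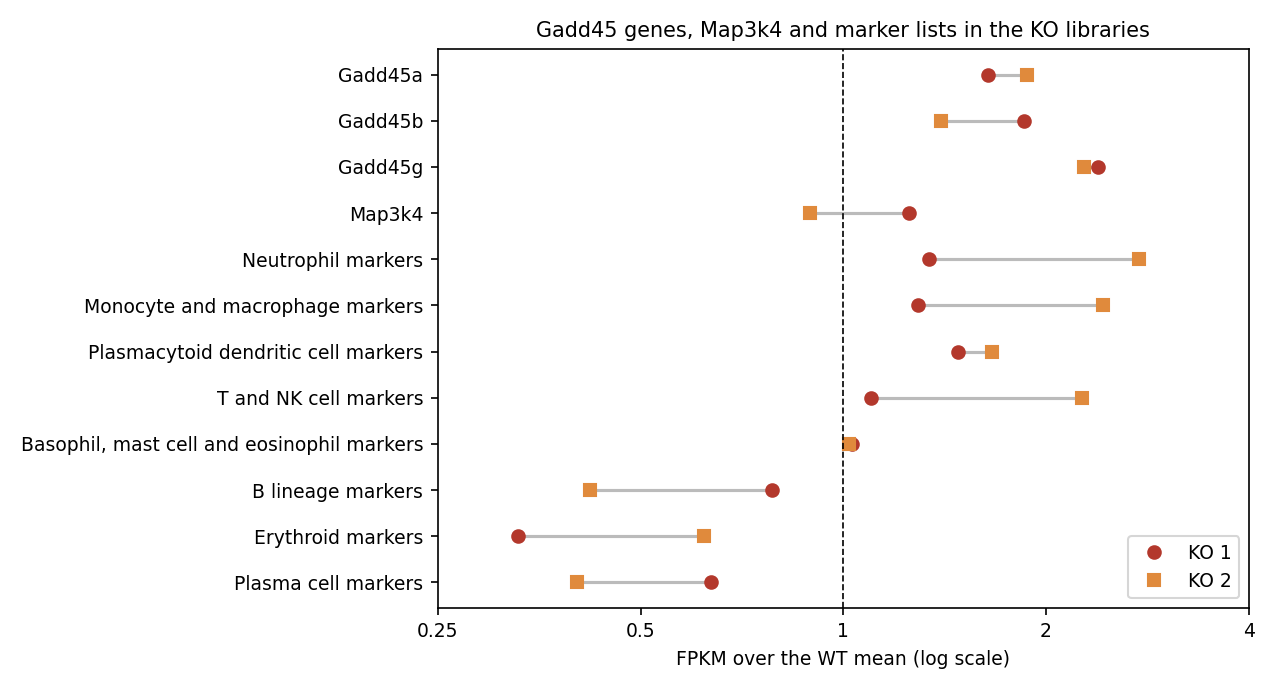
FPKM in KO 1 (circles) and KO 2 (squares) over the WT mean, on a log scale. Shown are each gene and the sum over each marker list but the haematopoietic progenitor list. Gadd45g is at 2.39 and 2.27, where the neutrophil list is at 1.34 and 2.75 and the B lineage list at 0.784 and 0.421.

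The genes around the family were taken from 8 lists of 109 genes, of which 95 were tested. At an adjusted p under 0.05 in limma 0 were called, where 0.203% of all genes tested were, and voom on estimated fragments also called 0. With p unadjusted, 4 genes were higher under the 0.05 limit, against a background of 6.45% of all genes tested, and 5 were lower, against 6.02%. Together they were 9.47% of the 95, where 12.5% of all genes tested passed that limit. Both KO libraries were above both WT libraries for 25 genes (26.3%, with 19.7% of all genes tested) and below for 26 (27.4%, with 31.7% of all genes tested). The median log2 difference over the lists was -0.06, and over all genes tested -0.09. Of all genes tested 38.3% were positive, the share to set beside the counts of positive genes in each list below. Without KO 1 the KO arm is KO 2 alone, so the spread comes from the WT libraries and KO 2 is assumed to vary like them. In that fit 6 genes passed (Map3k9, Mapk13, Mapkapk3, Cebpb and Stat3 higher, Pcna lower), with adjusted p of 0.0426 to 0.0490 in limma, where 7.1% of all genes tested passed. Leaving out any of the other libraries gave these 6 genes an adjusted p of 0.234 to 0.98.

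Among the upstream kinases of the MAP3K and TAO families, 0 of 12 tested passed, 6 were positive and the median log2 difference was 0.02. Map3k9, a mixed lineage kinase that feeds JNK, stood at 6.49 and 9.56 FPKM in KO 1 and KO 2, against 3.16 and 3.45 FPKM in WT 1 and WT 2. Its log2 difference of 1.05 ± 0.21 (SE) had an adjusted p of 0.293 in limma. Map3k5, which encodes the stress kinase ASK1, was at 14.52 and 13.61 FPKM in KO 1 and KO 2, against 11.13 and 11.78 FPKM in WT 1 and WT 2. Map3k3 was at 32.17 and 37.28 FPKM in KO, against 24.90 and 29.98 FPKM in WT. Map3k11 was at 30.06 and 29.37 FPKM in KO, against 26.02 and 24.46 FPKM in WT. The adjusted p of these 3 was 0.452, 0.458 and 0.493 in limma.

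Below MAP3K4 stand the MAP2K kinases and then p38 and JNK. Of 9 tested here 0 passed, 4 were positive and the median log2 difference was -0.02. Mapk13, which encodes p38 delta, a form abundant in myeloid cells, was at 22.27 and 33.23 FPKM in KO 1 and KO 2, against 11.57 and 11.04 FPKM in WT 1 and WT 2. Its log2 difference was 1.20 ± 0.22 (SE), with an adjusted p of 0.258 in limma. Mapk14, the ubiquitous p38 alpha, was at 68.29 and 76.82 FPKM in KO, against 60.38 and 59.28 FPKM in WT (adjusted p = 0.477 in limma). Mapk13 and Map3k9 were higher in KO 2 than in KO 1, as the neutrophil list was, and its part in their levels was not tested. The JNK gene Mapk9 was at 9.92 and 8.78 FPKM in KO, against 11.74 and 11.03 FPKM in WT. The JNK gene Mapk8 was at 3.68 and 2.85 FPKM in KO, against 3.46 and 4.03 FPKM in WT. Mapk10, the JNK gene of neurons, was listed at 0 in all 4 libraries.

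Map2k3, a p38 activator, was at 25.95 and 30.05 FPKM in KO, against 27.94 and 25.92 FPKM in WT. Map2k6, the other main p38 activator, was at 3.94 and 2.98 FPKM in KO, against 3.42 and 3.56 FPKM in WT. Both overlapped between the groups. Map2k4, which acts on JNK and p38, was at 15.47 and 19.27 FPKM in KO, against 14.52 and 14.39 FPKM in WT. Map2k7, the JNK activator that Gadd45b protein binds and inhibits, was at 19.32 and 15.54 FPKM in KO, against 19.63 and 19.34 FPKM in WT (adjusted p = 0.638 in limma).

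Among effector kinases and scaffolds 0 of 13 tested passed and 4 were positive, with a median log2 difference of -0.09. Mapkapk3, a kinase switched on by p38, was at 17.57 and 31.28 FPKM in KO 1 and KO 2, against 15.18 and 13.23 FPKM in WT 1 and WT 2. Its adjusted p was 0.423 in limma, and KO 1 was the library nearer to WT. Mapkapk2, its close relative, was at 84.22 and 96.35 FPKM in KO, against 74.60 and 75.27 FPKM in WT (adjusted p = 0.493). Rps6ka4, which encodes the histone kinase MSK2, was at 7.62 and 9.03 FPKM in KO, against 7.11 and 6.34 FPKM in WT. Spag9, a JNK scaffold gene, was at 11.20 and 11.64 FPKM in KO, against 12.67 and 14.30 FPKM in WT.

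The phosphatase genes listed around these kinase cascades did not move one way. Of 10 tested 0 passed, 3 were positive and the median log2 difference was -0.20. Dusp1, an immediate-early phosphatase gene, was at 64.60 and 90.27 FPKM in KO 1 and KO 2, against 37.31 and 53.70 FPKM in WT 1 and WT 2. Its log2 difference was 0.76 ± 0.26 (SE), with an adjusted p of 0.376 in limma. Dusp10, whose product acts on p38 and JNK, was at 3.55 and 1.26 FPKM in KO 1 and KO 2, against 5.41 and 7.31 FPKM in WT 1 and WT 2. Its log2 difference was -1.19 ± 0.37 (SE), with an adjusted p of 0.370 in limma. Dusp16 was at 1.79 and 1.91 FPKM in KO, against 2.53 and 2.52 FPKM in WT. Ppm1b was at 14.78 and 13.30 FPKM in KO, against 15.93 and 16.66 FPKM in WT.

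**Figure D5:**
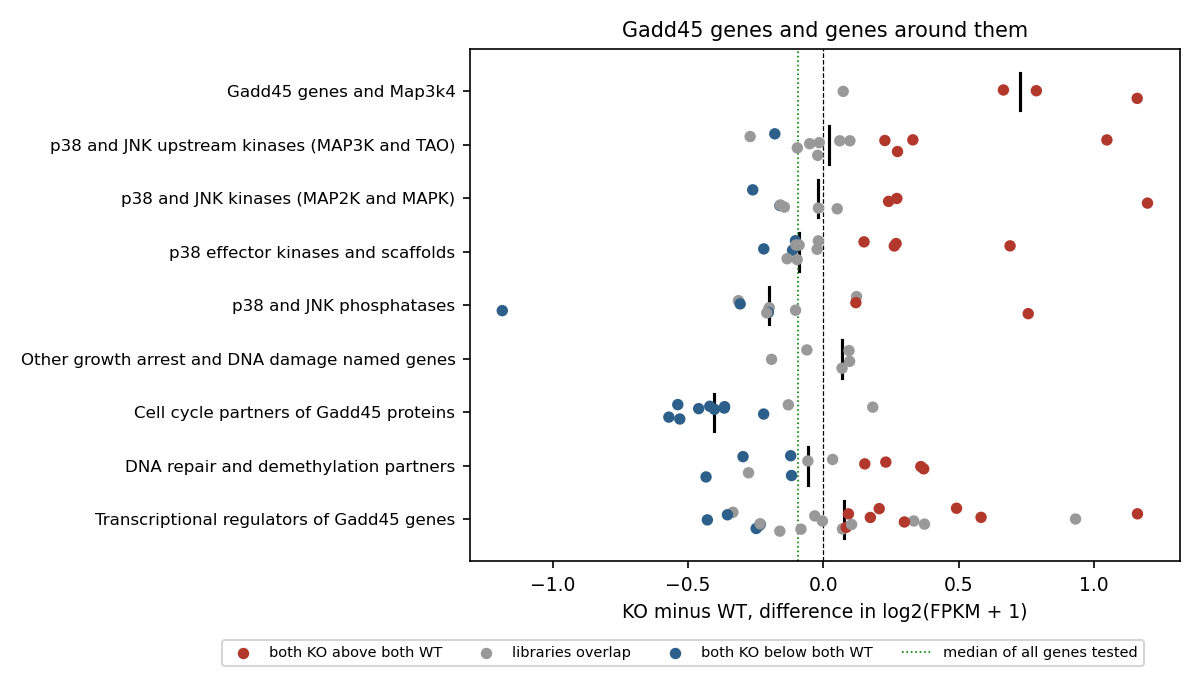
KO minus WT difference in log2(FPKM + 1) for each gene tested, by list, with red for both KO libraries above both WT libraries, blue for both below and grey for overlap. Black lines are list medians, 0.73 for the 4 genes described here and -0.40 for the cell cycle partners, and the dotted line is the median of all genes tested, -0.09.

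The cell cycle partners of Gadd45 proteins had lower values in KO on the deposited scale, with a median log2 difference of -0.40 over 11 genes tested, a sign that scaling to the B lineage list turns by adding 0.76 to every gene. The median over all genes tested was -0.09 on the deposited scale. None of the 11 passed (0 called), and 4 were lower at an unadjusted p under 0.05, where 6.02% of all genes tested were. Of the 11, 10 were negative, where 61.7% of all genes tested were. Both KO libraries were below both WT libraries for 9 of the 11, where 31.7% of all genes tested were. Ccnb1, which encodes the cyclin B1 of the complex that Gadd45a protein inhibits, was at 38.23 and 37.26 FPKM in KO 1 and KO 2, against 56.72 and 56.35 FPKM in WT 1 and WT 2. Its log2 difference was -0.57 ± 0.13 (SE), with an adjusted p of 0.314 in limma. Its kinase Cdk1 was at 31.14 and 29.82 FPKM in KO, against 42.24 and 39.01 FPKM in WT (adjusted p = 0.376). For both genes the KO libraries lay close together. The B lineage list was lower in the same libraries, at 0.784-fold and 0.421-fold the WT mean, and its part in these values was not tested. The mitotic phosphatase gene Cdc25c was at 5.21 and 4.91 FPKM in KO, against 7.05 and 7.63 FPKM in WT. The mitotic kinase gene Aurka was at 36.64 and 35.90 FPKM in KO, against 48.51 and 49.17 FPKM in WT.

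Pcna, the sliding clamp of DNA replication, was at 265.01 and 187.21 FPKM in KO 1 and KO 2, against 325.17 and 319.08 FPKM in WT 1 and WT 2. Its adjusted p was 0.433 in limma. Cdkn1a, which encodes p21, was at 11.80 and 6.94 FPKM in KO 1 and KO 2, against 7.39 and 8.40 FPKM in WT 1 and WT 2. Like Map3k4 it had KO values on either side of the WT values. Scaling to the B lineage list adds the same 0.76 to the log2 difference of every gene, so Ccnb1, Cdc25c, Aurka, Cdk1 and Pcna are positive on that scale by construction, and remain below the median of all genes.

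Of the 5 genes listed as growth arrest and DNA damage genes or their relatives 0 passed, with a median log2 difference of 0.07. All 5 overlapped between the groups, where 48.6% of all genes tested did. Ddit3, which encodes the stress factor CHOP, was at 14.34 and 10 FPKM in KO, against 12.30 and 12.80 FPKM in WT. Ppp1r15a, the Gadd34 gene that restarts translation after stress, was at 25.66 and 18.19 FPKM in KO, against 17.67 and 23.02 FPKM in WT. Ppp1r15b was at 50.37 and 56.93 FPKM in KO, against 48.50 and 51.52 FPKM in WT. Gadd45gip1, whose product binds Gadd45 proteins, was at 15.97 and 11.56 FPKM in KO, against 17.00 and 14.43 FPKM in WT.

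Of 11 DNA repair and demethylation partners tested 0 passed and 5 were positive, with a median log2 difference of -0.06. Xpc, a sensor of DNA lesions, was at 10.76 and 13.88 FPKM in KO, against 9.73 and 8.75 FPKM in WT. The methylcytosine oxidase gene Tet2 was at 3.23 and 3.88 FPKM in KO, against 2.27 and 2.83 FPKM in WT. The glycosylase gene Tdg was at 11.97 and 9.43 FPKM in KO, against 12.87 and 13.71 FPKM in WT. Mbd4, another glycosylase gene, was at 14.30 and 9.77 FPKM in KO, against 15.69 and 17.00 FPKM in WT. The lowest adjusted p of the list was 0.443 in limma.

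Of 24 transcription factors known to act on Gadd45 genes 0 passed and 13 were positive, with a median log2 difference of 0.08. Trp53, the p53 gene, was at 40.75 and 26.74 FPKM in KO 1 and KO 2, against 38.38 and 31.97 FPKM in WT 1 and WT 2. Cebpb, a factor of myeloid cells and inflammation, was at 67.91 and 124.51 FPKM in KO 1 and KO 2, against 44.01 and 37.42 FPKM in WT 1 and WT 2. Its log2 difference of 1.16 ± 0.31 (SE) had an adjusted p of 0.345 in limma. Stat3 was at 19.16 and 28.92 FPKM in KO, against 16.74 and 16.18 FPKM in WT (adjusted p = 0.439). Cebpa, the master factor of granulocytes, was at 11.95 and 20.75 FPKM in KO, against 11.07 and 9.40 FPKM in WT. These 3 genes were higher in KO 2 than in KO 1, as the neutrophil list was, and its part in their levels was not tested. Pou2f1, which encodes the octamer-binding factor OCT1, was at 5.85 and 4.18 FPKM in KO, against 6.06 and 7.21 FPKM in WT (adjusted p = 0.483).

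Genes with the most similar pattern were sought by the Euclidean distance between the 4 log2 values, each gene centred on its WT mean, among 8192 other genes that averaged 5 FPKM or more. Nearest to Gadd45a were Abtb1, Trp53inp2 and Fam222b, at distances of 0.0708, 0.107 and 0.109. Abtb1 was at 28.16 and 34.39 FPKM in KO 1 and KO 2, against 17.09 and 18.58 FPKM in WT 1 and WT 2. Nearest to Gadd45b were Dab2ip, Phlda1 and Klf10, at distances of 0.167, 0.208 and 0.246. Dab2ip was at 11.28 and 8.51 FPKM in KO 1 and KO 2, against 5.52 and 6.52 FPKM in WT 1 and WT 2. Nearest to Gadd45g were Chil5, Crispld2 and Gm12854, at distances of 0.259, 0.272 and 0.294. The distance takes in the size of the KO minus WT difference, and 100 of the 13281 genes tested had a larger one than Gadd45g. Chil5 was at 6.53 and 8.06 FPKM in KO 1 and KO 2, against 2.64 and 3.15 FPKM in WT 1 and WT 2. Nearest to Map3k4 were Aars, Sirt6 and Hps4, at distances of 0.0457, 0.0585 and 0.0633. Over 4 libraries such nearness is a description of these samples.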

How the data were processed

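The authors deposited 1 file of FPKM values per library, with 2 decimals, as named per the file headers. The submitters' processing notes name the build mm9. No source used here names the aligner, the counting program or the annotation. Per the labels' protocols, Trizol RNA of sorted cells (1 µg, RIN above 6.5) went into Illumina libraries. Symbols were matched for 55394 of 55573 identifiers, and coordinates come from GENCODE M21 on GRCm38, since the files give none. Ddit3 carries 2 identifiers, and the one with expression was used. FPKM times union exon length fell within 0.15 fragments of a whole multiple of 1 fragment in 99.4% to 99.6% of low values checked, where chance gives 30%. This gave the fragment estimates, which cover counting error only. The test was limma 3.58.1 in R 4.3.3 with a mean-variance trend, on log2(FPKM + 1), a filter of at least 1 FPKM in the mean of either group, Benjamini-Hochberg adjustment and a threshold of 0.05. It was checked on simulated data. With 200 genes changed 2-fold, 68% were recovered, with 11 false calls. With 200 genes changed 4-fold, 99% were recovered, with 11 false calls. A true 2-fold difference can therefore go uncalled. An exact permutation test of 2 against 2 libraries cannot give a p below 0.333. Since no label names separate animals, p-values cover only library-to-library spread, which may be technical. The members and lists were chosen with earlier results of these data known. From each list the 4 genes with the smallest p and a fixed set of direct partners were named. Alternatives were other pseudocounts, filters, scalings, no trend, voom on estimated fragments, a replicate block and leaving out each library.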

Additional observations from a re-analysis of the deposited data

How the results depend on the processing

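With 2 libraries a group, single libraries set how many genes of the whole table were called. The count was 27 with all libraries (0 higher, 27 lower), and between 0 and 948 when 1 library was left out: 0 without KO 2, 14 without WT 1 (0 higher) and 948 without KO 1 (563 higher, 385 lower). It was 15 with a pseudocount of 0.1, 0 with no filter, 9 with voom on estimated fragments and 639 with B lineage scaling (554 higher, 85 lower). The replicate block gave 68 calls (7 higher, 61 lower). The labels do not say that the numbers pair libraries, and same-numbered libraries deviated against each other (r = -0.149 across 13281 genes). The crossed pairing, added after seeing the data, gave 213 calls. Of the 4 genes described, 2 were called without KO 1 and 2 with B lineage scaling, where 7.1% and 4.81% of all genes tested were, 1 with the crossed pairing, where 1.6% were, and 0 in the other alternatives. Leaving out 1 library gave 0.69 to 0.88 for Gadd45a, 0.45 to 0.88 for Gadd45b, 1.07 to 1.25 for Gadd45g and -0.15 to 0.29 for Map3k4. B lineage scaling gave 1.55, 1.43, 1.92 and 0.83 for these 4 genes, which is the same 0.76 added to every gene. Relative to that shift the values are 0.79, 0.67, 1.16 and 0.07, as without it.

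In the lists, calls ranged from 0 to 1 when 1 library was left out for the upstream kinases, the MAP2K and MAPK genes, the effectors and the cell cycle partners, and from 0 to 2 for the transcription factors. B lineage scaling called 1 gene in each of the upstream kinases, the MAP2K and MAPK genes, the effectors and the phosphatases. It also called 2 of the transcription factors. Together these were 6.32% of the 95 list genes tested, where 4.81% of all genes tested were called. The crossed pairing called 1 MAP2K or MAPK gene and 1 phosphatase, 2.11% of the 95, where 1.6% of all genes tested were called. Of 581 recomputed results of 39 named genes, 535 kept their sign and side of the threshold. The 0.76 that B lineage scaling adds to every gene turns by construction each named gene between -0.76 and 0, which are 18: Mapk9 (0.50), Map2k7 (0.60), Mapk8 (0.60), Map2k6 (0.74), Spag9 (0.54), Dusp16 (0.45), Ppm1b (0.56), Gadd45gip1 (0.57), Ddit3 (0.70), Ccnb1 (0.19), Cdc25c (0.30), Aurka (0.34), Cdk1 (0.36), Pcna (0.23), Mbd4 (0.33), Tdg (0.46), Pou2f1 (0.41) and Trp53 (0.68). Quantile normalization and median centring turned Map2k6 (0.06 and 0.05) and Ddit3 (0.00 and 0.01). Leaving out 1 library gave either sign for Map2k3 (-0.05 to 0.15), Map2k6 (-0.17 to 0.14), Gadd45gip1 (-0.41 to 0.03), Ppp1r15a (-0.14 to 0.33), Ddit3 (-0.30 to 0.18), Cdkn1a (-0.16 to 0.53) and Trp53 (-0.38 to 0.21).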

Other observations

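Gadd45b was 1.33-fold higher in KO 1 than in KO 2, and 1.37-fold higher in WT 2 than in WT 1. The following genes of the lists were chosen after their values were seen. Jun, a subunit of the AP-1 factor, was at 128.79 and 70.71 FPKM in KO 1 and KO 2, and at 51.48 and 104.58 FPKM in WT 1 and WT 2. Jund was at 166.64 and 87.53 FPKM in KO 1 and KO 2, and at 107.14 and 188.73 FPKM in WT 1 and WT 2. Dusp5, a phosphatase gene induced by growth signals, was at 14.09 and 10.48 FPKM in KO 1 and KO 2, and at 9.16 and 18.65 FPKM in WT 1 and WT 2. All 3 were thus higher in KO 1 and in WT 2, as Gadd45b was. Atf3, a stress-induced factor, was at 8.09 and 7.40 FPKM in KO 1 and KO 2, and at 1.47 and 7.49 FPKM in WT 1 and WT 2. Of 11580 genes at 1 FPKM or more in every library, 1.93% were more than 1.3-fold higher both in KO 1 than in KO 2 and in WT 2 than in WT 1. Among the transcription factors listed 2 of 23 were (Jun and Jund), and among the phosphatases 2 of 10 (Dusp5 and Dusp10). The 1.3-fold limit lies just below the 1.33-fold and 1.37-fold of Gadd45b, so nothing is read from these shares. These values compare libraries within groups and have no test.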
